A study of Mus musculus with 13 samples.

Results

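The 8 genes described here, Lgals3, Tspan1, Tspan8, F3, Efna1, S100a16, Emp2 and Tmem37, mostly encode proteins of the cell surface or of cell adhesion, and were taken from the 31528 genes measured in mouse blastocysts put into diapause in several ways. They were picked for being much higher in diapause groups than in blastocysts of embryonic day 4.5 or, for Emp2, for being lower after targeting of Nprl2 and Tsc2. The values of those comparisons chose the genes, and the comparisons among the diapause groups reuse the same libraries, so all values of the 8 genes are given below as a description, without a test.

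All 13 libraries were made from whole blastocysts of the B6D2F1 background, a mix of C57BL/6 and DBA2J. The 5 induced groups were all labelled as day 5.5. Reduced KSOM (n = 3) and depleted KSOM (n = 2) were wild-type blastocysts held in culture. KSOM is a simple defined medium for preimplantation embryos; in reduced KSOM arginine, leucine, isoleucine, lysine, glucose and lactate were lowered, and in depleted KSOM the protein and carbohydrate components were left out. The starvation group (n = 2) was wild type, and its label says no more than that. Targeted OVX (n = 2) followed ovariectomy and received the guides sgNprl2 and sgTsc2; it is labelled as an Nprl2 and Tsc2 knockout, and the labels do not give the share of cells edited. OVX (n = 2) was wild type after ovariectomy, the classical hormonal way to hold a mouse blastocyst in diapause. The E4.5 group (n = 2) was wild type, on a normal diet and of day 4.5. Every induced group was thus a day older than E4.5, and age and treatment cannot be told apart there. No group is labelled as cultured in complete KSOM, so culture and lack of nutrients cannot be told apart either. The labels do not say whether libraries of a group came from separate mothers or cultures, so a p-value reflects no more than the spread among them.

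Before it implants, a blastocyst consists of an outer epithelium, the trophectoderm, around the epiblast and the primitive endoderm. In diapause its growth nearly stops and it stays in the uterus without attaching. The trophectoderm is the layer that later adheres to the uterine epithelium, and lectins, tetraspanins, integrins and Eph ligands are among the molecules at epithelial surfaces that take part in adhesion and signalling between cells.

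By role, Lgals3 encodes galectin-3, a lectin that binds beta-galactosides on glycoproteins. Tspan1 and Tspan8 encode tetraspanins, membrane proteins that gather integrins and other partners into membrane microdomains. Emp2 encodes epithelial membrane protein 2, of the PMP22 family, which influences which integrins reach the surface. Efna1 encodes ephrin-A1, a ligand tethered to the membrane that binds EphA receptors on neighbouring cells. F3 encodes tissue factor, the cell-surface receptor for factor VII that starts coagulation. S100a16 encodes an S100 protein, a small calcium binder found mainly inside cells, and Tmem37 a membrane protein related to the gamma subunits of voltage-gated calcium channels. On GRCm38 the genes lie at chr14:47367751-47386160 (Lgals3, plus strand), chr4:116161869-116167601 (Tspan1, minus), chr10:115816832-115849620 (Tspan8, plus), chr16:10281749-10313968 (Emp2, minus) and chr1:120067377-120074074 (Tmem37, minus). Efna1 (chr3:89271733-89281142, minus), S100a16 (chr3:90537254-90543151, plus) and F3 (chr3:121723537-121735048, plus) share chromosome 3. Efna1 ends 1256112 bases before S100a16 starts, and F3 lies a further 31180386 bases away. An antisense gene, 4930422I22Rik, overlaps Tspan8 on the other strand, and no source used here says that counting used strand.

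F3, Efna1 and S100a16 had the highest correlations of any trio of the 8 genes in log2 CPM, though not once group means were taken off, as shown further on, and 1 promoter window of each is printed here. Each window runs 5′ to 3′ in the direction of the gene, from 250 bases before a RefSeq start site to 50 bases after it, on GRCm38.p6: chr3:121723287-121723586 (F3, plus), chr3:89280902-89281201 (Efna1, minus; the upstream one of 2 windows) and chr3:90540896-90541195 (S100a16, plus; of 2 windows, the one with an AP-1 match). Capitals mark matches on either strand to AP-1 (TGANTCA), SP1 (GGGCGG) or the TATA box (TATAAA).
F3: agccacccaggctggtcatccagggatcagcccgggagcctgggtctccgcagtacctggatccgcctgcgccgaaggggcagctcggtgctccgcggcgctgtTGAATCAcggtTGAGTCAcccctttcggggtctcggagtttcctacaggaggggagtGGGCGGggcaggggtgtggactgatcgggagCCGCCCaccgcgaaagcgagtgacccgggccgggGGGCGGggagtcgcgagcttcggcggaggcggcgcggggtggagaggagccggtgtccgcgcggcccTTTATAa
Efna1: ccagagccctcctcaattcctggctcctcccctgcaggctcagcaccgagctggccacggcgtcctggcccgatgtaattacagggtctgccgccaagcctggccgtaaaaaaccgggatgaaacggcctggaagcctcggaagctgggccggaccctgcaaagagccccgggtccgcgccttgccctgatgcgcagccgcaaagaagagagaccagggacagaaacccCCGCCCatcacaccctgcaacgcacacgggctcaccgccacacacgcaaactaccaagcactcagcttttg
S100a16: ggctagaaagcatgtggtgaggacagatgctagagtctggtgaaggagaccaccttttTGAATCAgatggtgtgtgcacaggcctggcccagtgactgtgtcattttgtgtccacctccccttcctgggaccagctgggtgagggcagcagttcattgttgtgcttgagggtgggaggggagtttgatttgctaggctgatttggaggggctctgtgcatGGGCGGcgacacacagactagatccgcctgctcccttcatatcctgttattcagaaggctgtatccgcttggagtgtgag

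The AP-1 letters occurred in F3, 146 and 135 bases before the start, and in S100a16, 192 bases before it. Among all 32851 promoter windows of the table, 7.81% held them. Efna1 had none in either of its windows, and Tmem37 had a match 103 bases before its start. SP1 letters were found in 8 of the 10 windows of the 8 genes, against 35.7% of all windows. The E-box (CACGTG, 7.15% of all windows), the hypoxia motif (ACGTG, which lies within the E-box; 19.6%) and the TEAD motif (GGAATG, 14.7%) occurred in none of the 10. A FOXO match (TGTTTAC, 3.65%) was in Tspan8, and a TFAP2 match (GCCNNNGGC, 16.6%) in Tspan1 and Tmem37. The TATA box letters (13.6%) were in F3 alone, on the opposite strand and 43 bases after the start, not before it. The F3 window had 70.3% G and C with 32 CpG, the Efna1 window 63.7% with 20 and the S100a16 window 54.3% with 4. The medians over all windows were 52.7% and 7. A match shows no binding and a missing one says nothing of the factor. Of the motifs searched SP1 alone was in all 3 printed windows, and the S100a16 window not printed held no match to any of them.

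Libraries held 40678386 to 72125687 counts, and all 8 genes passed the filter on low counts, which a gene can do through the group where it is high. Levels below are CPM, counts set to a common library size with trimmed-mean (TMM) scaling, unless FPKM is named. The labelled tissue was checked on marker genes. All 8 trophectoderm and all 8 epiblast markers were detected in every library. The summed trophectoderm level, in CPM of library totals, was 10197 to 20090 in reduced KSOM, 8002 to 8927 in depleted KSOM, 6793 to 13026 in starvation, 3333 to 5158 in targeted OVX, 4821 and 12546 in OVX, and 6338 to 9696 in E4.5. The epiblast sum was 122 to 182 CPM in reduced KSOM, 184 to 227 in depleted KSOM, 297 to 467 in starvation, 116 to 210 in targeted OVX and 93.1 to 182 in OVX, against 434 to 462 in E4.5, so that only starvation reached the E4.5 range. The primitive endoderm sum was 647 to 714 CPM in reduced KSOM, 1270 to 1456 in depleted KSOM, 868 to 1134 in starvation, 297 to 485 in targeted OVX and 414 to 864 in OVX, against 1265 to 1345 in E4.5. In depleted KSOM most of the primitive endoderm sum was Dab2, at 1204 and 957 CPM, against 289 and 422 in E4.5. Lrp2 (59.9 and 54.2 against 556 and 545) and Gata6 (41.9 and 52.7 against 176 and 151) were lower there. The other primitive endoderm markers overlapped with E4.5. The epiblast and primitive endoderm sums stood lower in several of the groups where the 8 genes stood higher than in E4.5. Their part in those values was not tested. These are bulk samples, so fewer cells of a type and less RNA per cell cannot be told apart.

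Genes of other tissues were high in some libraries. Neutrophil genes summed to 1276 to 1780 CPM in reduced KSOM, with all 11 detected, to 631 in OVX replicate 1 and 193 in OVX replicate 2, and to at most 151 elsewhere. In starvation, depleted KSOM and E4.5 most of the sum was Csf3r, at 141 CPM in the library with 151. Skeletal muscle genes summed to 1079 to 1492 CPM in reduced KSOM and 1455 in OVX replicate 1, and to at most 494 elsewhere. In those other libraries most of the sum was Mylpf, at 490 CPM in the library with 494. Acta1 and Myh4 reached at most 0.226 and 0.676 CPM there. Macrophage genes summed to 251 to 353 CPM in reduced KSOM and 428 in OVX replicate 1, and to at most 66.2 elsewhere. Erythroid genes summed to 353 CPM in reduced KSOM replicate 3, 379 in depleted KSOM replicate 1 and 83.7 in OVX replicate 1, to at most 35.8 in the other induced libraries, and to 5.12 and 16.6 in E4.5. Of the uterine epithelium list, 1 of whose genes is also a trophectoderm marker, 4 to 10 of 12 genes were detected. The list summed to 234 to 1387 CPM, of which Klf5 had 165 to 1004. The list's defining genes Wnt7a and Pgr reached at most 0.0280 and 0.282 CPM in any library. Other members were higher in some libraries. Esr1 had 4.62 CPM and Foxa2 10.7 in starvation replicate 2, and Msx1 had 16.9 there, 9.71 and 14.1 in targeted OVX and 34.4 in OVX replicate 2, against 0 in both E4.5 libraries. Lcn2, at 75.7 to 111 CPM in reduced KSOM and 41.6 in OVX replicate 1, and Ltf, at 50.6 to 69.7 in reduced KSOM, were near 0 in E4.5; neutrophils also make both. Uterine stroma genes summed to at most 46.0 CPM, with Dcn at 30.7 in starvation replicate 2 and at most 1.55 elsewhere.

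**Figure D1:**
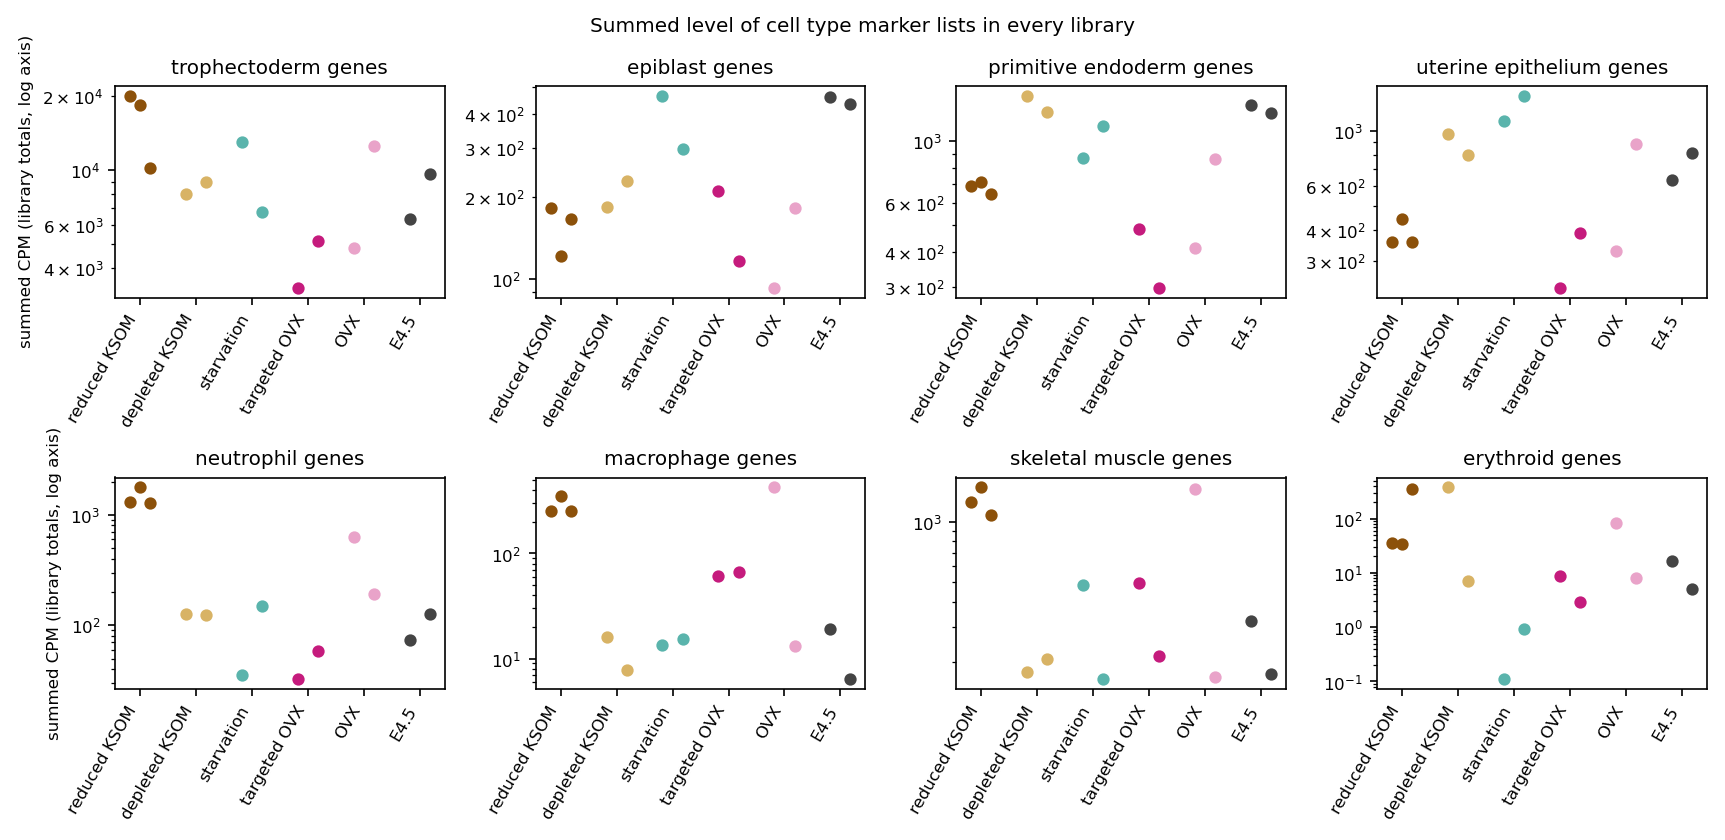
Summed CPM of 8 marker lists in every library (log axis, library totals; 1 point per library, groups from reduced KSOM at the left to E4.5 at the right). Neutrophil genes were highest in the 3 reduced KSOM libraries (1276 to 1780 CPM), and macrophage and muscle genes were high in reduced KSOM and in OVX replicate 1. Erythroid genes were highest in depleted KSOM replicate 1 (379 CPM). The epiblast sum reached the E4.5 range (434 to 462 CPM) only in starvation replicate 1 (467 CPM).

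Lgals3 was higher in all 5 induced groups than in E4.5. It stood at 517, 519 and 446 CPM in reduced KSOM, 378 and 501 in depleted KSOM, 1241 and 926 in starvation, 784 and 1109 in targeted OVX, and 975 and 681 in OVX, against 79.9 and 62.3 CPM in E4.5. On the TMM scale the groups fell into 3 levels. Starvation, targeted OVX and OVX overlapped at the top, reduced and depleted KSOM overlapped below them, and E4.5 lay apart at the bottom. Scaled by library totals, starvation (1369 and 1129 CPM) lay wholly above OVX (655 and 779) and targeted OVX (599 and 967). Against E4.5 the log2 fold change ran from 2.63 ± 0.35 (SE) in depleted KSOM, 6.18-fold, to 3.93 ± 0.37 in starvation, 15.2-fold.

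**Figure D2:**
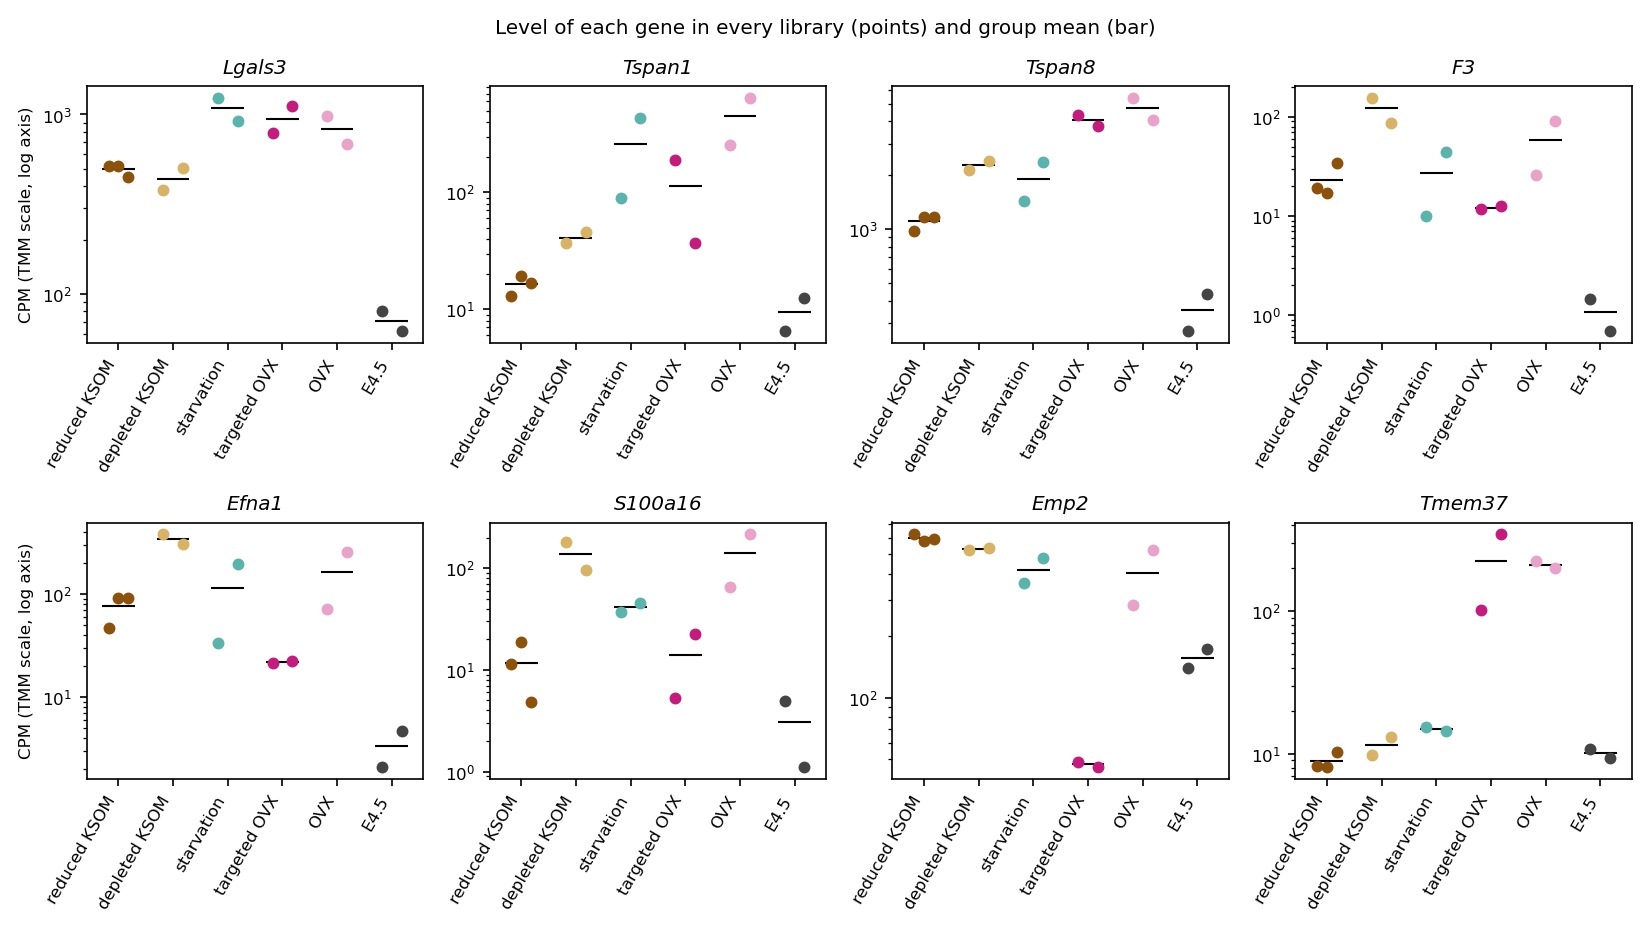
CPM of the 8 genes in every library (log axis, TMM scale; 1 point per library, groups from reduced KSOM at the left to E4.5 at the right). Lgals3 and Tspan8 were high in all induced groups, Tmem37 was high in targeted OVX and OVX alone, and Emp2 was lowest in targeted OVX (45.7 and 48.7 CPM).

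The tetraspanin Tspan8 was the most abundant of the 8 genes per length of transcript in all 6 groups, as the FPKM below show. It stood at 976, 1175 and 1164 CPM in reduced KSOM, 2130 and 2404 in depleted KSOM, 1438 and 2379 in starvation, 4306 and 3761 in targeted OVX, and 5404 and 4059 in OVX, against 272 and 436 CPM in E4.5. OVX and targeted OVX overlapped at the top, depleted KSOM and starvation overlapped in the middle, and reduced KSOM lay between these and E4.5 without overlap. Relative to E4.5 the log2 fold change was 3.74 ± 0.40 in OVX (13.4-fold) and 1.64 ± 0.35 in reduced KSOM (3.12-fold).

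Tspan1, the other tetraspanin, was far less even. It had 12.9, 19.3 and 16.9 CPM in reduced KSOM, 36.7 and 45.5 in depleted KSOM, 89.8 and 428 in starvation, 189 and 37.2 in targeted OVX, and 253 and 645 in OVX, against 6.55 and 12.5 CPM in E4.5. Replicates differed 4.77-fold in starvation and 5.07-fold in targeted OVX, and each of OVX, starvation, targeted OVX and depleted KSOM overlapped with the next in that order. Reduced KSOM stood just above E4.5, with a lowest library of 12.9 CPM next to 12.5 CPM. The log2 fold change against E4.5 was 5.56 ± 0.91 in OVX (47.0-fold) and 0.78 ± 0.70 in reduced KSOM. Without OVX replicate 2 the OVX value was 4.73. The starvation value of 4.76 came to 3.23 without starvation replicate 2, and the targeted OVX value of 3.56 to 1.96 without targeted OVX replicate 1.

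Emp2, the integrin-regulating membrane protein, moved least of the 8 across libraries, 13.7-fold between the lowest and the highest, and was the single one wholly below E4.5 in an induced group. It stood at 627, 581 and 595 CPM in reduced KSOM, 524 and 537 in depleted KSOM, 361 and 481 in starvation, 48.7 and 45.7 in targeted OVX, and 283 and 527 in OVX, against 140 and 172 CPM in E4.5. Its order among the wild-type induced groups was the reverse of that of Tspan1, with reduced KSOM highest and OVX lowest by mean. OVX overlapped with starvation and with depleted KSOM. In log2 terms it differed from E4.5 by 1.95 ± 0.32 in reduced KSOM (3.86-fold) and 1.38 ± 0.33 in OVX (2.60-fold), and by -1.72 ± 0.33 in targeted OVX (3.30-fold lower). With 1 library left out at a time the OVX value ran from 0.86 to 1.76. Scaled by library totals, OVX and E4.5 overlapped for Emp2.

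The Eph ligand Efna1 was highest in depleted KSOM. It had 46.9, 90.7 and 92.3 CPM in reduced KSOM, 380 and 302 in depleted KSOM, 33.4 and 194 in starvation, 21.2 and 22.4 in targeted OVX, and 72.1 and 255 in OVX, against 2.07 and 4.64 CPM in E4.5. Depleted KSOM overlapped with no other group, OVX, starvation and reduced KSOM overlapped with each other, and both targeted OVX libraries lay below them. The log2 fold change against E4.5 was 6.67 ± 0.92 in depleted KSOM (101.7-fold) and 2.70 ± 0.77 in targeted OVX (6.5-fold). In starvation, 5.08 against E4.5, it came to 3.32 without replicate 2, and in OVX, 5.61 against E4.5, to 4.43 without replicate 2 and 6.25 without replicate 1.

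F3, the tissue factor gene, followed the same order of group means. It had 19.0, 17.1 and 34 CPM in reduced KSOM, 156 and 87.5 in depleted KSOM, 9.98 and 44.2 in starvation, 11.8 and 12.6 in targeted OVX, and 26.1 and 91.1 in OVX, against 1.46 and 0.695 CPM in E4.5. Depleted KSOM overlapped with OVX here, and targeted OVX with starvation. On the log2 scale F3 stood above E4.5 by 6.82 ± 0.90 in depleted KSOM (112.7-fold) and by 3.49 ± 0.77 in targeted OVX (11.3-fold). Its OVX value of 5.76 came to 4.59 without OVX replicate 2 and 6.40 without replicate 1, and its starvation value of 4.65 to 3.21 without starvation replicate 2.

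S100a16 had 11.4, 18.9 and 4.8 CPM in reduced KSOM, 179 and 96.8 in depleted KSOM, 37.4 and 45 in starvation, 5.28 and 22.4 in targeted OVX, and 65.3 and 216 in OVX, against 5.0 and 1.1 CPM in E4.5. OVX and depleted KSOM overlapped at the top, starvation lay apart below them, and reduced KSOM overlapped with targeted OVX and with E4.5. The log2 fold change against E4.5 was 5.52 ± 1.0 in OVX (46.0-fold), 5.5 ± 1.0 in depleted KSOM (45.2-fold) and 1.94 ± 0.82 in reduced KSOM. These 3 values depended on the E4.5 libraries, at 6.998, 6.97 and 3.41 without E4.5 replicate 1 and 4.82, 4.79 and 1.23 without replicate 2; the OVX value was also 4.42 without OVX replicate 2. In targeted OVX, 2.18 against E4.5, it came to 0.78 without replicate 2. Depleted KSOM replicate 1, the library with the highest erythroid sum, was also the higher of its pair for F3, Efna1 and S100a16. Without it their values against E4.5 were 6.34, 6.495 and 4.99.

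Tmem37, the relative of the calcium channel gamma subunits, was high after ovariectomy and in no other group. It had 8.18, 8.04 and 10.3 CPM in reduced KSOM, 9.87 and 13.2 in depleted KSOM, 15.3 and 14.6 in starvation, 102 and 346 in targeted OVX, and 222 and 201 in OVX, against 10.8 and 9.37 CPM in E4.5. The 2 OVX libraries differed by 1.11-fold and the 2 targeted OVX libraries by 3.40-fold. The other groups lay between 8.04 and 15.3 CPM, and E4.5 overlapped with depleted and with reduced KSOM. The log2 fold change against E4.5 was 4.39 ± 0.51 in OVX (21.0-fold), 4.47 ± 0.51 in targeted OVX (22.2-fold), 0.57 ± 0.45 in starvation, 0.20 ± 0.45 in depleted KSOM and -0.19 ± 0.41 in reduced KSOM. Without targeted OVX replicate 2 the targeted OVX value was 3.33. The depleted KSOM value turned to -0.13 when libraries were scaled by their totals.

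**Figure D3:**
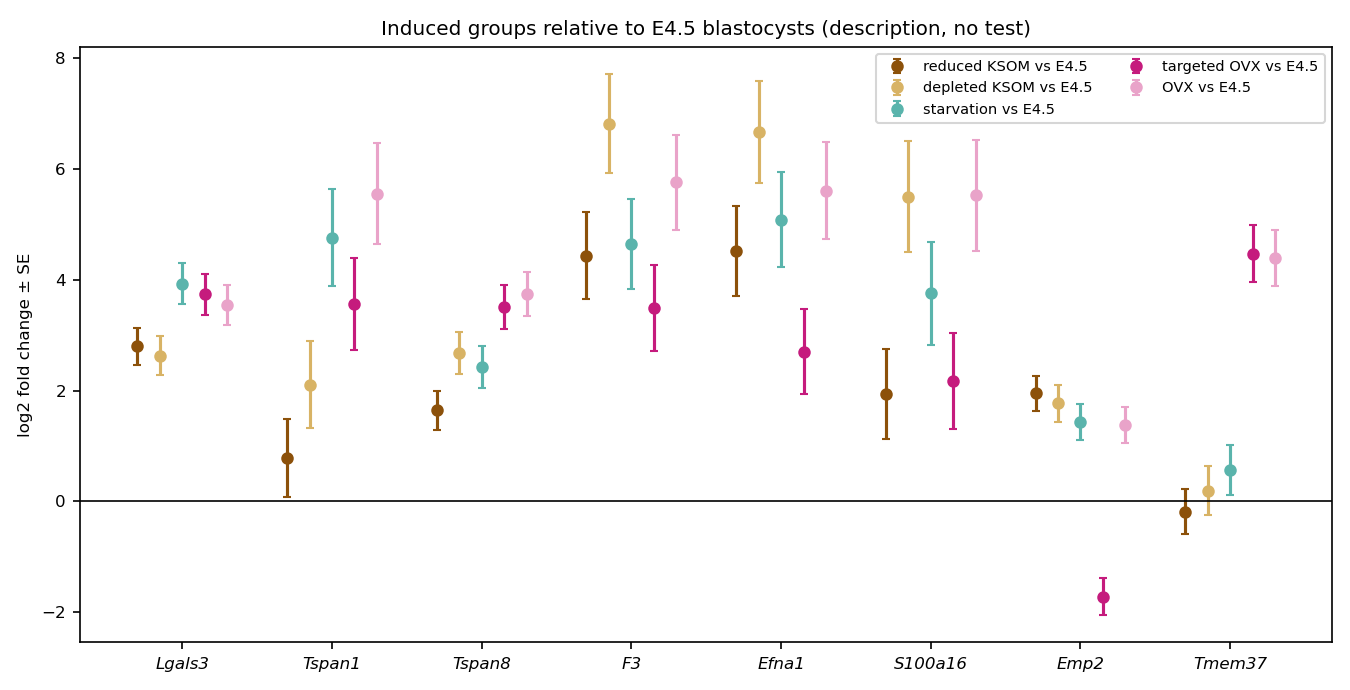
Log2 fold change (± SE) of the 8 genes in each induced group against E4.5, from reduced KSOM at the left to OVX at the right in each gene; the values chose the genes and carry no test. F3 and Efna1 were furthest from 0 in depleted KSOM (6.82 and 6.67), Emp2 was below 0 in targeted OVX (-1.72), and Tmem37 was near 0 in the 3 groups without ovariectomy.

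Counted over the 8 genes, every library lay above both E4.5 libraries for 6 genes in reduced KSOM, 7 in depleted KSOM, 8 in starvation, 7 in targeted OVX and 8 in OVX, with Emp2 alone below in targeted OVX. By the same rule 24%, 24.5%, 19.8%, 19.3% and 21.3% of all 21808 genes tested lay wholly above E4.5 in those groups, in the same order, and 29.6% wholly below it in targeted OVX; the genes were chosen on these comparisons, so nothing is read from the counts. The median log2 fold change of the 8 was 1.94, 2.65, 3.84, 3.50 and 4.96, against 0.15, -0.09, 0, -0.16 and 0 over all genes tested. All 5 comparisons share the 2 E4.5 libraries. Without OVX replicate 1, the OVX values of the 8 genes ran from 1.76 (Emp2) to 6.40 (F3), and with any 1 of the 4 libraries left out from 0.86 (Emp2) to 6.998 (S100a16). Scaling by library totals lowered the median of all genes by up to 0.75 (log2, targeted OVX against E4.5). On that scale S100a16 in targeted OVX, Emp2 in OVX and Tspan1 in reduced KSOM overlapped with E4.5, and Tmem37 in reduced KSOM lay wholly below it.

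Compared per length in the FPKM of the deposited table, Tspan8 led the 8 genes in every group, with 507 ± 71.6 in reduced KSOM (SD, n = 3), 1341 ± 78.6 in depleted KSOM, 1190 ± 493 in starvation, 1751 ± 2.29 in targeted OVX, 2204 ± 351 in OVX and 257 ± 94.1 in E4.5 (n = 2 each). Lgals3 was the next in every group, with 208 ± 27.6, 238 ± 40.7, 607 ± 82.5, 383 ± 128, 350 ± 38.0 and 46.8 ± 6.31 FPKM in the same order of groups. F3 was the lowest of the 8 in E4.5 with 0.515 ± 0.233 FPKM, and it averaged 48.9 ± 20.7 in depleted KSOM. Emp2 reached 61.8 ± 0.601 FPKM in depleted KSOM and 4.04 ± 0.212 in targeted OVX.

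Within ovariectomy, guides against Nprl2 and Tsc2 address whether the diapause state depends on these brakes on the growth kinase complex mTORC1. Nprl2 itself had 13.9 and 28.6 CPM in targeted OVX, against 36.5 and 38.0 in OVX, and Tsc2 had 8.26 and 14.7 CPM against 14.1 and 23.3. Neither passed the edgeR test (adjusted p = 0.552 and 0.575), so the counts do not check the label. Among the 8 genes, 5 lay wholly below OVX in targeted OVX: Emp2 at a log2 fold change of -3.10 ± 0.35 (8.58-fold lower), S100a16 at -3.34 ± 0.90, Efna1 at -2.91 ± 0.77, F3 at -2.27 ± 0.73 and Tspan1 at -1.99 ± 0.78. Of all genes tested, 19.1% lay wholly below OVX in the same way. These values entered the choice of the genes, so they carry no test and nothing is read from the count. Leaving out 1 library at a time, Emp2 ran from -3.49 to -2.59, S100a16 from -4.74 to -2.24, Efna1 from -3.56 to -1.73, F3 from -2.91 to -1.10 and Tspan1 from -3.60 to -1.17. Lgals3 (0.19 ± 0.33), Tspan8 (-0.23 ± 0.36) and Tmem37 (0.08 ± 0.45) overlapped between the groups. With 1 library left out at a time, Lgals3 ran from -0.084 to 0.46, Tspan8 from -0.43 to -0.019 and Tmem37 from -1.07, without targeted OVX replicate 2, to 0.70, without replicate 1. Tmem37 also turned to -0.28 in a limma fit on log2(FPKM + 0.1), and Tspan8 lay wholly below OVX when libraries were scaled by their totals. The summed trophectoderm level was also lower in targeted OVX, at 3333 and 5158 CPM, against 4821 and 12546 in OVX, with overlap; its part in the values was not tested.

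The remaining comparisons among the induced groups set libraries against each other that had all entered the choice of the genes. A gene picked for a large difference between OVX and E4.5 starts from a high OVX level in them, so the values are again given without a test. Tmem37 was lower than OVX in all 3 groups without ovariectomy, where it stood within 2-fold of E4.5. It was 23.9-fold lower in reduced KSOM than in OVX (log2 fold change -4.58 ± 0.44), 18.3-fold lower in depleted KSOM (-4.20 ± 0.51) and 14.2-fold lower in starvation (-3.83 ± 0.50). With 1 library left out at a time these values ran from -4.71 to -4.51, from -4.42 to -4.00 and from -3.89 to -3.76. The 3 comparisons share the OVX libraries.

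Reduced KSOM lay wholly below OVX for 5 of the 8 genes, where 13.8% of all genes tested did. Besides Tmem37 these were Tspan1 (27.4-fold lower, -4.78 ± 0.74), S100a16 (11.999-fold lower, -3.58 ± 0.78), Tspan8 (4.28-fold lower, -2.10 ± 0.33) and Lgals3 (-0.74 ± 0.30). Emp2 lay wholly above OVX (0.57 ± 0.30), as 16.8% of all genes did, and overlapped with it when scaled by library totals. F3 (-1.33 ± 0.62) and Efna1 (-1.09 ± 0.64) had overlapping groups. Without OVX replicate 2, Tspan1 was at -3.95, S100a16 at -2.48, F3 at -0.16 and Efna1 at 0.087. Without OVX replicate 1, the library with muscle and macrophage transcripts, Tspan1 was at -5.31, Tspan8 at -1.88 and S100a16 at -4.21. Neutrophil, macrophage and muscle genes were higher in reduced KSOM than in OVX replicate 2, and macrophage and muscle genes were also high in OVX replicate 1; their part in these values was not tested.

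Depleted KSOM lay wholly below OVX for 4 of the 8 genes, where 22.2% of all genes did. Besides Tmem37 these were Tspan1 (-3.45 ± 0.83), Tspan8 (-1.06 ± 0.36) and Lgals3 (-0.91 ± 0.33). Efna1 (1.06 ± 0.72) lay wholly above OVX, as 19.8% of all genes did. F3 (1.06 ± 0.70), Emp2 (0.39 ± 0.33) and S100a16 (-0.03 ± 0.82) overlapped. Without OVX replicate 2, Tspan1 was at -2.62, and Efna1, F3 and S100a16 were at 2.24, 2.23 and 1.08. Without OVX replicate 1, the last 3 were at 0.42, 0.42 and -0.65. Starvation lay wholly below OVX for 3 of the 8 genes, Tmem37, Tspan8 (-1.31 ± 0.37) and S100a16 (-1.77 ± 0.85), where 17.7% of all genes did, and scaled by library totals S100a16 overlapped. The other 5 had overlapping groups, from -1.11 (F3) to 0.39 (Lgals3). Scaled by library totals, Lgals3 in starvation lay wholly above OVX.

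The 2 KSOM groups share culture and differ in the medium. Reduced KSOM lay wholly below depleted KSOM for 5 of the 8 genes, where 20.8% of all genes did. S100a16 was 11.8-fold lower in reduced than in depleted KSOM (log2 fold change -3.56 ± 0.78), F3 5.22-fold lower (-2.38 ± 0.63) and Efna1 4.45-fold lower (-2.15 ± 0.65). Tspan8 was at -1.04 ± 0.32 and Tspan1 at -1.33 ± 0.68. With 1 library left out at a time, S100a16 ran from -4.09 to -3.05, F3 from -2.75 to -1.91 and Efna1 from -2.31 to -1.90. Emp2 (0.18 ± 0.30) lay wholly above depleted KSOM, as 27.5% of all genes did, and wholly below it when scaled by library totals (-0.19). Lgals3 (0.17 ± 0.30) also turned to -0.19 on that scale, and Tmem37 was at -0.38 ± 0.41. Neutrophil genes summed to 1276 to 1780 CPM in reduced and 124 to 127 CPM in depleted KSOM, and the erythroid sum was 353 CPM in 1 reduced KSOM library and 379 CPM in 1 depleted KSOM library; their part in these values was not tested.

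**Figure D4:**
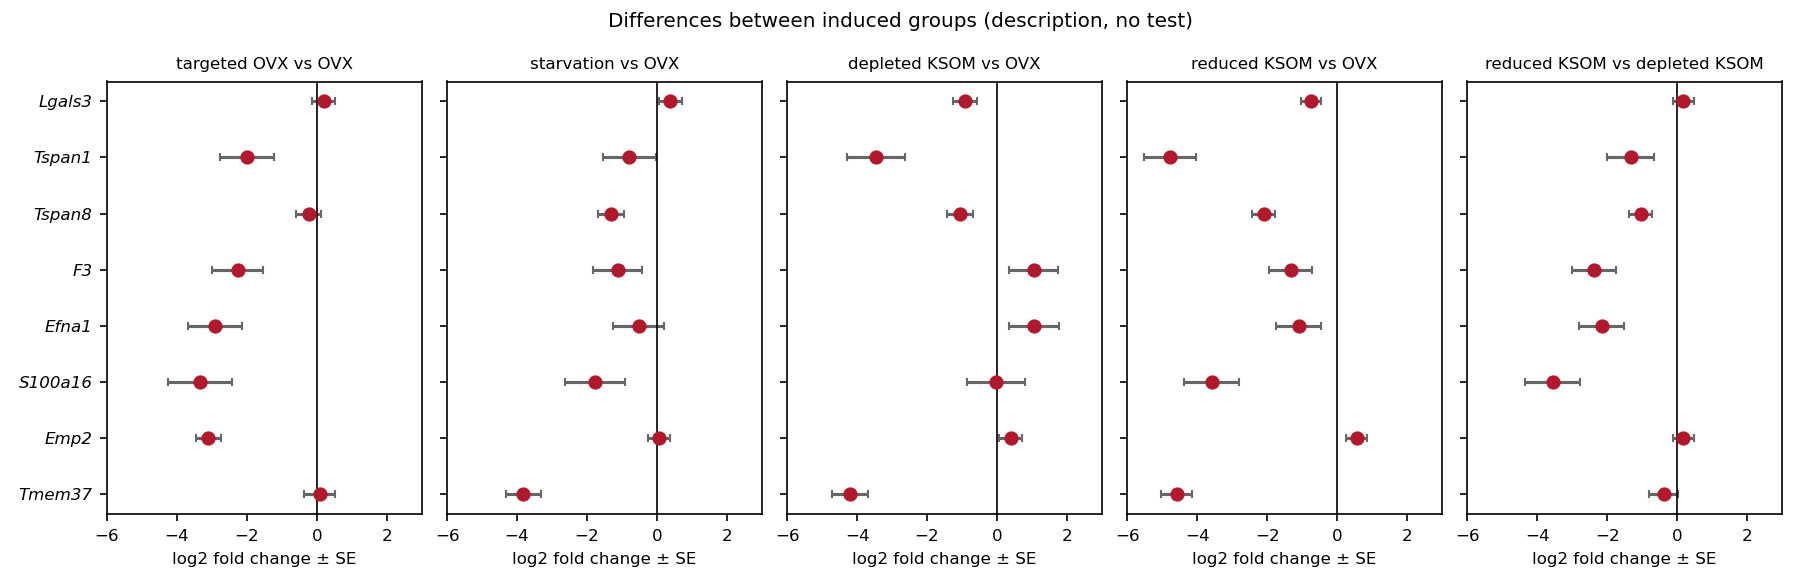
Log2 fold change (± SE) of the 8 genes in 5 comparisons between induced groups; the libraries entered the choice of the genes and the values carry no test. Tmem37 was furthest below 0 in depleted KSOM and starvation against OVX (-4.20 and -3.83), and S100a16, F3 and Efna1 were below 0 in reduced against depleted KSOM (-3.56, -2.38 and -2.15).

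Across the 13 libraries the 8 genes formed no single pattern. F3 and Efna1 had a Pearson correlation of 0.96 on the log2 CPM scale, F3 and S100a16 0.83, and Efna1 and S100a16 0.80. A second set held Tspan8 with Lgals3 (0.83), Tspan1 (0.80) and Tmem37 (0.74). Emp2 was nearest to Efna1 (0.64) and stood opposite Tmem37 (-0.54). Libraries of a group share their treatment, and these correlations carry no p. They reflect differences between groups as well as within them, and both sets looked different once each group's mean was taken off. In a group of 2 libraries the deviations mirror each other, so the values without group means rest on 7 degrees of freedom and are imprecise. In those deviations F3 and Efna1 still correlated at 0.72, but F3 and S100a16 at 0.36 and Efna1 and S100a16 at 0.10, while Emp2 correlated with Efna1 at 0.79 and with F3 at 0.63. Tspan8 kept a positive value with Tspan1 (0.56), but was at -0.34 with Lgals3 and -0.16 with Tmem37, and Lgals3 and Tspan1 stood at -0.80, against 0.66 before. In the pairs of OVX and starvation libraries, F3, Efna1, S100a16, Tspan1 and Emp2 were all higher in replicate 2 than in replicate 1, 5.81-fold for Efna1 in starvation and 3.53-fold in OVX. Lgals3 was higher in replicate 1 of both groups on the TMM scale. In OVX this depended on the scaling: replicate 1 was lower than replicate 2 in CPM of library totals (655 against 779) and in FPKM (323 against 377).

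**Figure D5:**
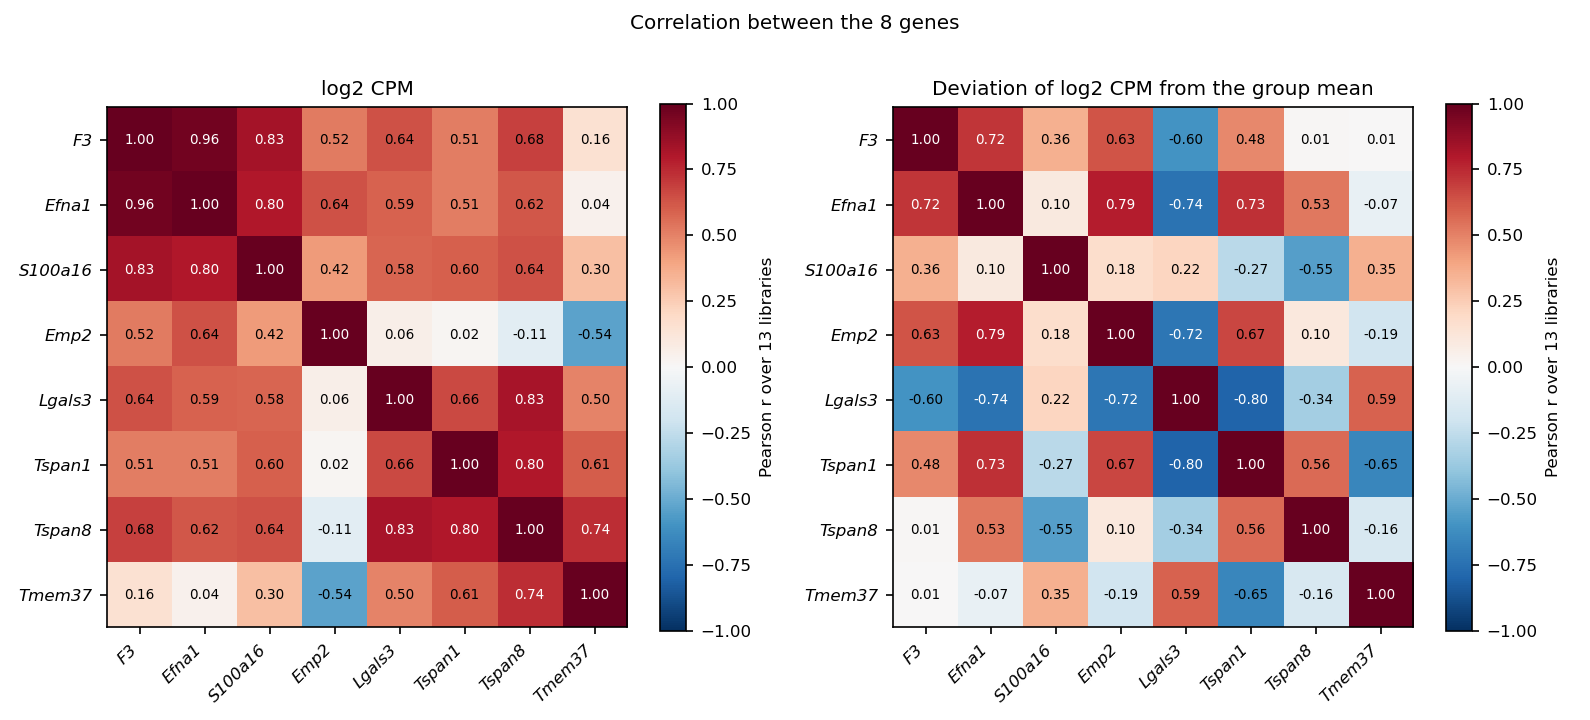
Pearson correlation between each pair of the 8 genes over the 13 libraries, of log2 CPM at the left and of deviations from the group mean at the right (colour from -1 to 1, value printed in each cell). The deviations at the right have 7 degrees of freedom. F3, Efna1 and S100a16 form a block of 0.80 to 0.96 at the left and have 0.10 to 0.72 at the right, and Tspan8 with Lgals3 has 0.83 at the left and -0.34 at the right.

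Over the same 13 libraries, the pattern of each gene was compared with 4937 other genes of a mean log2 CPM of at least 4. F3 was most like Efna1 (0.96) and Cast (0.96), which encodes the calpain inhibitor calpastatin. Efna1 was most like F3 and Tmem50a (0.96). S100a16 was most like Fam221a (0.94) and Qtrt1 (0.92), which encodes a tRNA-guanine transglycosylase subunit. Tspan8 was most like Emc7 (0.94), a subunit of the membrane protein complex of the endoplasmic reticulum, and BC051665 (0.94). Tspan1 was most like Plp2 (0.92) and Prxl2a (0.86). Lgals3 was most like Aasdhppt (0.94) and Pdcl3 (0.94). Emp2 was most like Sdhc (0.94), a subunit of succinate dehydrogenase, and Decr1 (0.91), an enzyme of fatty acid oxidation in mitochondria. Tmem37 was most like Tsen15 (0.95), a subunit of the tRNA splicing endonuclease, and Fam177a2 (0.94). Tsen15 itself averaged 54.1 CPM in OVX and 30.4 in E4.5. These are Pearson values, picked as the highest among the 4937 genes. The rank correlation (Spearman) was 0.73 for Tsen15 and Pdcl3, 0.74 for Aasdhppt, 0.75 for Sdhc and at least 0.868 for the others.

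Relatives and partners of the 8 genes were listed as galectins, tetraspanins, coagulation genes, ephrins and Eph receptors, S100 proteins with annexins, the EMP family, calcium channel subunits and integrins. The S100 list also holds Ahnak and S100pbp, the integrin list Ilk and Ptk2, and the galectin list Lgals3bp. The lists held 169 genes, of which 138 were tested. Most of them were not called. Against E4.5, 6 were called higher and 1 lower in reduced KSOM, 10 and 2 in depleted KSOM, 6 and 1 in starvation, 6 and 2 in targeted OVX, and 9 and 2 in OVX. In these comparisons 4.35% to 7.25% of the 138 were called higher. Among all genes tested the share was 0.77% in reduced KSOM, 3.29% in depleted KSOM, 1.68% in starvation, 1.68% in targeted OVX and 1.56% in OVX. The lists were chosen with earlier results of these data known, and the comparisons share the E4.5 libraries. Nothing is therefore read from the difference in shares. The higher calls in reduced KSOM and OVX include S100a8 and S100a9 of the neutrophil list, and those in targeted OVX include S100a8. In targeted OVX against OVX edgeR called none of the 138, with 24 at an unadjusted p under 0.05 and 6 called by DESeq2, where edgeR called 0.0367% of all genes in either direction. Against OVX, edgeR called 1 higher and 0 lower in reduced KSOM, with 20 at an unadjusted p under 0.05 and 4 called lower by DESeq2, and 1 higher and 3 lower in both depleted KSOM and starvation; of all genes 0.202%, 0.679% and 0.225% were called in those groups in either direction. Between reduced and depleted KSOM, 7 were higher and 2 lower, with 5.79% of all genes called. Of 54 results named by the rule over 20 genes, 9 kept the call with every library left out in turn.

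Of 26 tetraspanins tested, 2 were called higher than in E4.5 in reduced KSOM, 5 in depleted KSOM, 3 in starvation, 2 in targeted OVX and 3 in OVX, and 0 lower in each, with 8 to 12 at an unadjusted p under 0.05 in either direction and none called lower by DESeq2. The median log2 ratio of the 26 to E4.5 was 1.39 in reduced KSOM, 1.27 in depleted KSOM, 1.15 in starvation, 1.52 in targeted OVX and 2.02 in OVX, against 0.18, -0.17, 0.01, -0.17 and 0.04 over all genes tested. Cd9, a tetraspanin of gametes and epithelia, was called in all 5. It averaged 2773 ± 42.1 CPM in OVX (SD, n = 2), against 560 ± 30.9 in E4.5 (n = 2), which was 4.95-fold higher (edgeR adjusted p = 0.00459), a call kept with each library left out. Its calls in the other 4 induced groups, 2.94-fold to 3.83-fold higher, were each lost without E4.5 replicate 1 (adjusted p = 0.115 to 0.188) or 2 (0.0752 to 0.174). Cd82 was 9.45-fold higher in starvation than in E4.5 (103 ± 7.43 against 10.9 ± 6.84 CPM, edgeR adjusted p = 0.00989), a call that ended when E4.5 replicate 1 was left out (0.0670).

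Of 16 genes tested in the S100 list, which also holds annexins, Ahnak and S100pbp, 2 to 5 were called higher than in E4.5 in each induced group. Among all genes tested 0.77% to 3.29% were. Ahnak was among the calls in depleted KSOM, starvation and OVX. S100a16 itself averaged 141 CPM in OVX and 138 in depleted KSOM. S100a14, which lies between S100a13 and S100a16 on chromosome 3, averaged 19.2 CPM in OVX and 14.1 in depleted KSOM and was not called. S100a6, on the other side, averaged 100 CPM in OVX and 17.6 in depleted KSOM. S100a1 and S100a13, also near S100a16, were highest in depleted KSOM. S100a1 averaged 1040 ± 109 CPM there, against 10.002 ± 5.62 CPM in E4.5, 103.9-fold higher (edgeR adjusted p = 0.00409), and S100a13 averaged 298 ± 15.7 CPM, against 11.6 ± 8.80 CPM, 25.7-fold higher (0.0133). Both calls held with each library left out. S100a1 was also called in reduced KSOM (53.3-fold) and starvation (40.2-fold), calls that were lost without E4.5 replicate 2 and, in reduced KSOM, without any 1 of its own libraries (0.0515 to 0.0621; without E4.5 replicate 2, edgeR adjusted p = 0.0637 and 0.0554). In the same groups S100a16 was 3.84-fold and 13.5-fold above E4.5. S100a8, which neutrophils make in bulk and which is also in the neutrophil list, averaged 517 ± 65.7 CPM in reduced KSOM, against 1.26 ± 1.19 in depleted KSOM (edgeR adjusted p = 0.0117). It averaged 219 ± 193 CPM in OVX, against 0.109 ± 0.0718 in E4.5 (adjusted p = 0.00866). All 11 neutrophil genes were detected in every reduced KSOM library.

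Of 9 galectins tested, Lgals1, the prototype galectin, was 5.90-fold higher in OVX than in E4.5 (16650 ± 10607 against 2824 ± 405 CPM, edgeR adjusted p = 0.0197). Leaving out E4.5 replicate 1 (0.0646) or 2 (0.109) ended that call. Lgals9 averaged 0.0493 ± 0.0697 CPM in depleted KSOM, against 22.9 ± 22.5 in E4.5 (adjusted p = 0.00474). Reduced KSOM, with 10.1 ± 3.75 CPM, was also above depleted KSOM (adjusted p = 0.0117). Among 19 coagulation genes tested, edgeR called none in OVX, starvation, reduced KSOM or targeted OVX against E4.5 and 2 higher in depleted KSOM, where F3 was also highest. In those 4 comparisons 4 to 5 had an unadjusted p under 0.05, and DESeq2 called 2 to 4. Pros1, which encodes the anticoagulant protein S, averaged 391 ± 200 CPM in depleted KSOM, against 41.3 ± 9.95 in E4.5 (9.47-fold, adjusted p = 0.00687). Plat, tissue plasminogen activator, was 7.53-fold higher (67.3 ± 14.9 against 8.93 ± 5.68 CPM, edgeR adjusted p = 0.0278). Leaving out replicate 1 of E4.5 (0.171) or of depleted KSOM (0.0960) ended that call.

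Of 23 integrins tested, whose surface display EMP2 influences, edgeR called 2 lower in targeted OVX and 1 in each of the other induced groups against E4.5, and 0 higher. In these comparisons 3 to 8 had an unadjusted p under 0.05 in either direction, and DESeq2 called 2 higher in depleted KSOM, 1 in targeted OVX and 2 in OVX. Itga6, a laminin receptor subunit, averaged 14.1 ± 2.20 CPM in depleted KSOM, against 59.1 ± 2.06 in E4.5 (4.20-fold lower, edgeR adjusted p = 0.0180), with the call lost when any 1 of the 4 libraries was left out (0.0725 to 0.148). Itgav averaged 2.35 ± 0.739 CPM in starvation, against 18.6 ± 5.18 in OVX (7.92-fold lower, adjusted p = 0.0267), a call kept with each library left out. Perp, a desmosome gene of the EMP family list, averaged 194 ± 4.35 CPM in starvation, against 30.3 ± 5.08 in OVX (6.40-fold higher, edgeR adjusted p = 0.0198). That call was lost without OVX replicate 1 (0.0548). No ephrin or Eph receptor and no calcium channel subunit was called by edgeR in any of the 10 comparisons. At an unadjusted p under 0.05 there were 0 to 4 ephrin or Eph genes and 0 to 5 channel subunits in each, and DESeq2 called up to 4 of each list in a comparison.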

How the data were processed

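RNA from whole blastocysts was amplified as full-length cDNA for ultra-low input (SMART-Seq v4), without molecular identifiers and with no strand stated, per the labels' protocols; counts of amplified copies are not independent molecules. Per the submitters' processing notes, reads were handled with cutadapt 1.9, HISAT2 2.0.4 and StringTie 1.3.4d on GRCm38; the annotation and the tool that counted are not given in the sources used here. The authors' deposited table gives estimated counts, all whole numbers, for 31528 genes in 13 libraries. Between 27.2% and 34.6% of nonzero counts up to 100 are multiples of 4. The FPKM values in the same table were computed by the authors. Library depth was 40678386 to 72125687 counts.

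Genes were kept with filterByExpr (21808), scaled by TMM (factors 0.671 to 1.41) and tested with edgeR 4.0.16 quasi-likelihood tests in 1 fit of 13 libraries (6 group means, 7 residual degrees of freedom). Calls were made at a Benjamini-Hochberg adjusted p under 0.05 over all genes tested, in 10 comparisons. The standard error of a log2 fold change was taken from its F value. The genes, the lists of relatives and the marker lists were chosen with earlier results of these data known, and 6 of the 10 comparisons entered the choice of the 8 genes. The other 4, in which they were to be tested, reuse the same libraries, so no p-value is given for the 8 genes in any comparison. A gene was counted as wholly above or below when no library of the groups overlapped. By the naming rule, up to 3 called genes per list and comparison whose mean log2 CPM reached 2 could be named, by smallest adjusted p, and for each of the 8 genes the 2 most correlated genes on log2 CPM with a prior count of 2. Medians of lists used a floor of 3 counts per library. Promoter windows were taken from RefSeq (GRCm38.p6), where all 8 genes matched by symbol, and gene positions from the deposited table.

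Alternatives were median-of-ratios scaling, library totals, DESeq2 1.42.0, limma 3.58.1 on log2(FPKM + 1) and log2(FPKM + 0.1), no low-count filter (at least 1 count), a minimum mean CPM of 5, only the groups compared, the replicate number as a block and each library left out. The test was also run on counts simulated with the spread that the same fit had estimated. That checks the working of the code and not the calls reported here. Same-numbered libraries deviated from their group means with correlations of -0.13 to 0.23, so the numbers were not taken to pair them. The software was R 4.3.3, Python 3.11.15 and, for figures, matplotlib 3.10.9.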

Additional observations from a re-analysis of the deposited data

How the results depend on the processing

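Of 1072 values of the 8 genes under other settings, 33 had another sign than in the reported fit. Counts of genes called are given in the order depleted KSOM against E4.5 (1201 in the reported fit) and against OVX (148), OVX against E4.5 (445), reduced KSOM against depleted KSOM (1263), against E4.5 (247) and against OVX (44), starvation against E4.5 (483) and against OVX (49), and targeted OVX against E4.5 (581) and against OVX (8). DESeq2 called 3257, 1975, 2011, 3561, 1753, 699, 2259, 1635, 2573 and 885. With no low-count filter the counts were 2370, 1417, 1470, 2652, 1226, 589, 1473, 1091, 1638 and 636. With limma on log2(FPKM + 1) they were 2670, 295, 1834, 1994, 2248, 141, 1799, 211, 2258 and 53, and on log2(FPKM + 0.1) they were 2283, 231, 1202, 1993, 1641, 115, 1335, 152, 1866 and 23. Fitting only the groups compared gave 2212, 0, 0, 4455, 2462, 26, 0, 0, 0 and 0, where edgeR still had 1272 to 4165 genes at an unadjusted p under 0.05 in the comparisons with 0. A minimum mean CPM of 5 gave 384 for depleted KSOM against OVX, 888 for OVX, 499 for reduced KSOM, 978 for starvation and 1039 for targeted OVX against E4.5, and 117 and 272 for reduced KSOM and starvation against OVX. Library totals gave 287, 545 and 230 for OVX, reduced KSOM and starvation against E4.5, and 24 and 28 for reduced KSOM and starvation against OVX. The replicate block gave 73 for depleted KSOM, 3 for reduced KSOM, 0 for starvation (2592 at an unadjusted p under 0.05) and 4 for targeted OVX against OVX, 59, 311 and 380 for reduced KSOM, starvation and targeted OVX against E4.5, and 479 between the KSOM groups. With the numbers crossed in depleted KSOM, the block called 198 genes against OVX.

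With each library left out the counts ran, in the first order, from 378 to 540, 41 to 934, 109 to 691, 121 to 225, 9 to 46, 0 to 229, 55 to 1105, 31 to 660, 82 to 791 and 22 to 179.

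Values of the 8 genes carry no test; those among induced groups that changed sign were as follows. In targeted OVX against OVX, Tmem37 was at -0.0020 with library totals, -0.0054 with the block, -0.27 and -0.28 with limma and -1.07 without targeted OVX replicate 2, and Lgals3 at -0.084 without that library and -0.047 without OVX replicate 2. In starvation against OVX, leaving out 1 library at a time gave -2.33 to 0.034 for Tspan1, -2.56 to 0.055 for F3, -2.30 to 0.66 for Efna1 (also 0.26 without starvation replicate 1) and -0.33 to 0.58 for Emp2 (also -0.17 without starvation replicate 2), with the highest value of each without OVX replicate 2. In depleted KSOM against OVX, S100a16 was at 0.076 with library totals, 0.12 with the block, 0.061 with the crossed block, 0.015 with the groups alone, 0.48 and 0.49 with limma, and -0.65 to 1.08 with a library left out (0.35 without depleted KSOM replicate 2). Efna1 ran from -1.74 to 0.087 in reduced KSOM against OVX, its positive sign without OVX replicate 2. Between the KSOM groups Lgals3 and Emp2 were both at -0.19 with library totals and in both limma fits, and Lgals3 ran from -0.021 without depleted KSOM replicate 1 to 0.38. The cause of these changes was not tested. Groups of 2 or 3 libraries set the precision.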
